A study of Mus musculus with 6 samples.

Results

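Pqbp1, the gene for polyglutamine-binding protein 1, was described in naive CD4 T cells, across 6 libraries made by mTAIL-seq. It is 1 gene ID (ENSMUSG00000031157.10) of the 6469 that had a tailed tag. It was chosen by its tag count, which differed between the libraries numbered 1 and 2 and those numbered 3, so its tag counts are a description, with no test. Its tail lengths and reads per tag, which the choice did not use, are tested where the number of libraries allows. In this assay the 3' ends of total RNA receive an adaptor, the RNA is cut with RNase T1, and each end is read together with its poly(A) tail. A tag is a group of such reads, and a tag was counted as tailed when its tail was 5 nt or longer.

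The cells were sorted as TCRb+, CD4+, CD25-, CD62L-high and CD44-low. All mice carried floxed Btg1 and Btg2 alleles (Btg1f/f Btg2f/f). The 3 WT libraries came from littermate controls without Cre, and the 3 DKO libraries from mice that also carried CD4-Cre, so that deletion was driven by the CD4 promoter, which is active from thymocyte stages onward. Age and sex of the animals are not given. BTG1 and BTG2 bind the CCR4-NOT deadenylase, which shortens poly(A) tails, and the study asked how their loss affects mRNA decay in resting T cells. The series text names 3 replicates per genotype and the growth protocol 2 pairs of mice. Which libraries share mice is not stated, so a p-value here concerns these libraries and does not extend to mice in general. The scatter between libraries may be technical.

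PQBP1 is a nuclear protein with a WW domain, which binds proline-rich motifs, and a disordered C-terminal region that binds the U5 snRNP protein TXNL4A. It acts in pre-mRNA splicing, and in myeloid cells it has been described as a sensor of retroviral DNA upstream of cGAS. Mutations of the human gene on the X chromosome cause Renpenning syndrome, a form of intellectual disability. In the RefSeq annotation of GRCm38.p6 the mouse gene lies on the minus strand of chromosome X, from 7894519 to 7899269. Its 3' end faces that of Slc35a2, a UDP-galactose transporter gene on the plus strand that ends 26 bases away. Its 5' end lies 66 bases from the start of Timm17b, a subunit gene of the mitochondrial import channel on the plus strand. None of the 218 tags linked to Pqbp1 was linked to a second gene ID (0 of 218).

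The libraries numbered 3 stood apart from the others in both genotypes. A library held between 3943 (DKO replicate 3) and 24024 (DKO replicate 2) tags that were tailed and linked to a gene ID, and the library numbered 3 was the smallest of each genotype. Among all mapped tags, 32.3% (WT) and 35.3% (DKO) had no tail of 5 nt or more in number 3, against 7.95% to 9.94% in numbers 1 and 2. Mean tail length over all tailed, gene-linked tags was 48.3 and 60.9 nt in number 3 and 70.3 to 78.9 nt in the others. Values are therefore given for each library alone, and with and without number 3. The markers of T cells and of other cell types could not be read, because the files do not pair gene IDs with names.

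Pqbp1 had 13, 19 and 7 tailed tags in WT replicates 1, 2 and 3, and 103, 70 and 3 in DKO replicates 1, 2 and 3. Of all 215 tailed tags, 80.5% thus came from DKO replicates 1 and 2. Per 10000 tailed, gene-linked tags, these were 7.67, 16.7 and 9.75 for WT and 49.8, 29.1 and 7.61 for DKO. DKO replicates 1 and 2 were high, whereas DKO replicate 3 lay below all 3 WT libraries, so the genotypes overlapped.

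The 95% exact (Clopper-Pearson) intervals of these shares cover counting error only and take tags, not libraries, as the unit. They describe the counts by which Pqbp1 was chosen and are no test of a difference between libraries. The interval of DKO replicate 1 (40.7 to 60.4 per 10000) overlapped that of no other library. DKO replicate 2 (22.7 to 36.8) overlapped WT replicate 2 (10.05 to 26.0) but not WT replicate 1 (4.08 to 13.1), WT replicate 3 (3.92 to 20.1) or DKO replicate 3 (1.57 to 22.2). In order of tags per 10000, the libraries ran DKO 1, DKO 2, WT 2, WT 3, WT 1 and DKO 3. The single intervals of the last 4 overlapped each other, but the ratio of WT replicate 2 to WT replicate 1 was 2.18 with an interval of 1.02 to 4.79. This pair, the highest and the lowest WT library, was picked after the values were seen, and its interval is not adjusted for that. In bulk RNA, fewer cells that express a gene and less of its RNA per cell cannot be told apart.

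**Figure D1:**
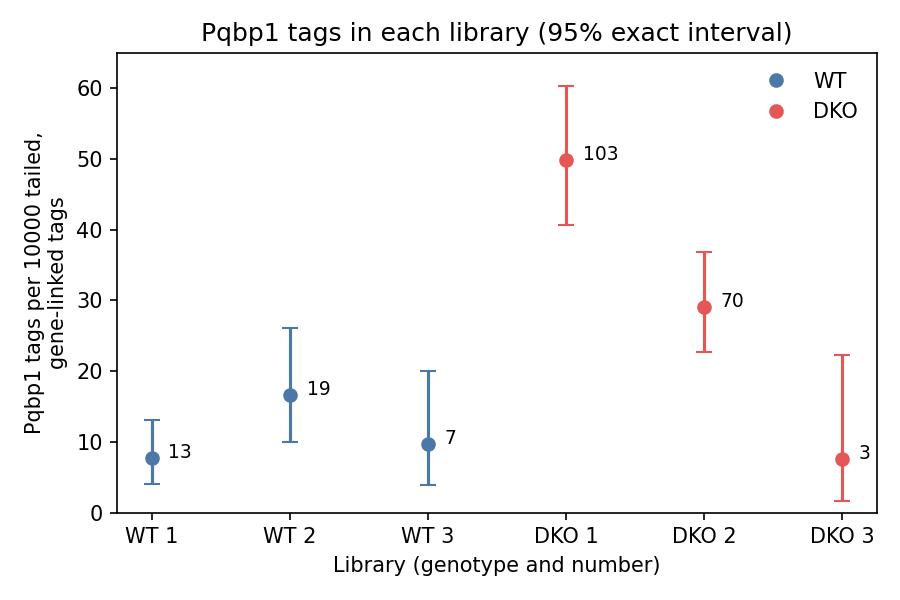
Tailed Pqbp1 tags per 10000 tailed, gene-linked tags in each library, with the 95% exact interval as bars and the number of Pqbp1 tags beside each point. DKO 1 (49.8) and DKO 2 (29.1) sit above the other 4 libraries, which lie between 7.61 and 16.7.

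Within a library number, the DKO share was 6.50 times the WT share in number 1 (95% exact interval 3.64 to 12.6, counting error only). The same ratio was 1.75 in number 2 (1.04 to 3.07) and 0.780 in number 3 (0.130 to 3.42). Over the 170 gene IDs with enough tags for the count model, the median ratio was 1.13, 1.01 and 1.09 in numbers 1, 2 and 3. In number 1 none of the other 169 IDs had a higher ratio (0 of 169, with a pseudocount of 0.5), in number 2 21 IDs did and in number 3 101 did. Pqbp1 was thus at the top of the distribution in number 1, in its upper part in number 2 and below its middle in number 3.

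**Figure D2:**
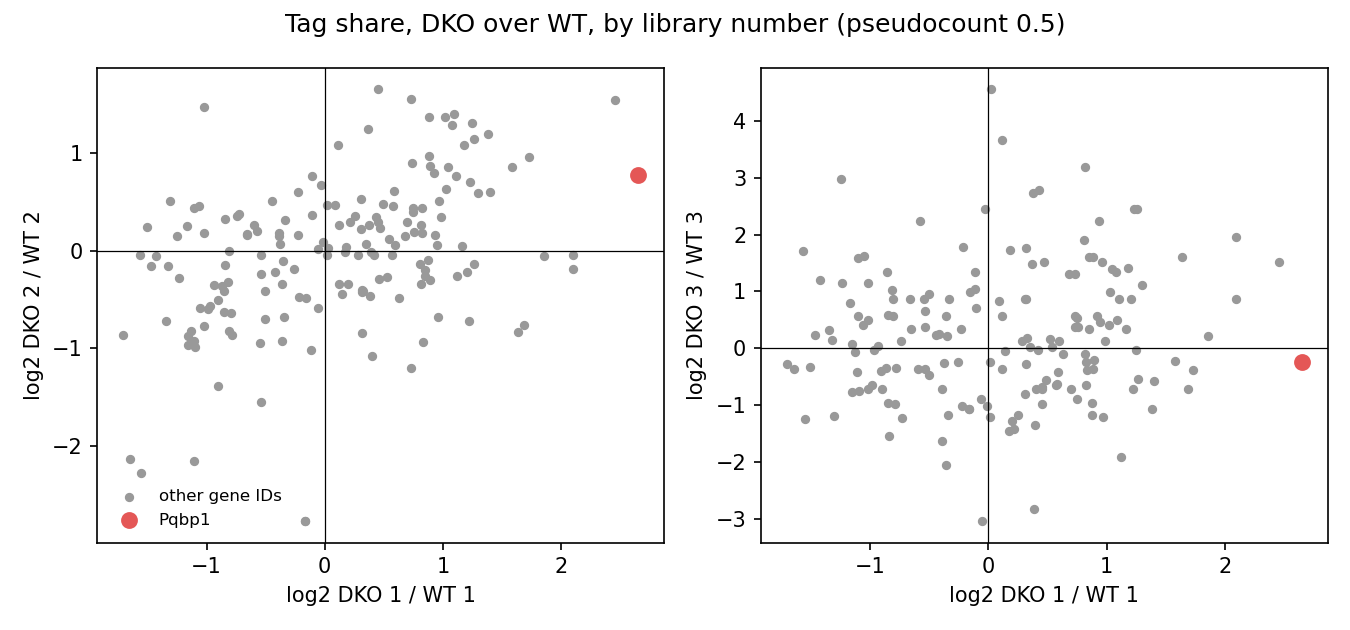
Log2 ratio of the tag share in DKO over WT for the 170 gene IDs of the count model, number 1 on the x axis against number 2 (left) and number 3 (right), with a pseudocount of 0.5. Pqbp1 (red) lies farthest to the right, above 0 in number 2 and just below 0 in number 3.

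Between library numbers, the ratio was larger in DKO than in WT, a difference that was not tested. Numbers 1 and 2 of DKO together had 5.09 times the share of DKO replicate 3 (1.71 to 24.9), where the median over the 170 IDs was 1.08. In WT the same ratio was 1.16 (0.502 to 3.11), and the median over IDs was also 1.16. At the combined share of DKO replicates 1 and 2, DKO replicate 3 would have held 15.3 Pqbp1 tags, and it held 3. WT replicate 3 held 7, against 8.10 at the combined share of WT replicates 1 and 2. These values are the ones by which Pqbp1 was chosen. It was 1 of 23 among the 170 IDs that were higher in DKO in numbers 1 and 2 and lower in number 3. The libraries numbered 3 also differed from the rest in untailed tags, tail length and depth, as given above, and the part of these in the result was not tested.

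Pooled over all 6 libraries, the mean share per 10000 was 11.4 ± 4.72 for WT and 28.9 ± 21.1 for DKO (SD, n = 3 each). In edgeR's quasi-likelihood model the log2 difference of Pqbp1 (DKO minus WT) was 1.39 with a standard error of 0.54, given as a description. Without DKO replicate 1 it was 0.84. That model called 0 of 170 IDs at an adjusted p of 0.05 (0.0%), with 13 below 0.05 unadjusted, and DESeq2 called 0, with 8 unadjusted. Blocked on the replicate number, the model called 3 of 170 IDs (1.76%), and the log2 difference of Pqbp1 was 1.31 with a standard error of 0.48.

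Reads, tail lengths and tiles of the Pqbp1 tags in the high libraries are given as a description. The cause of the high counts was not tested. In DKO replicate 1 the 103 tags held 294 reads, at most 13 in 1 tag, and had 70 different tail lengths. In DKO replicate 2 the 70 tags held 149 reads, at most 8 in 1 tag, and had 55 different tail lengths. Tags were spread over 26 of the 28 sequencing tiles in the former and 23 of 28 in the latter, with at most 10 tags on a tile in either. Counted as reads, the shares per 10000 reads were 6.29, 17.3 and 5.83 for WT and 45.8, 27.3 and 4.89 for DKO, the same order of libraries except that WT replicates 1 and 3 changed places.

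A Pqbp1 tag held on average 2.38, 3.11 and 1.0 reads in the WT libraries and 2.85, 2.13 and 1.33 reads in the DKO libraries. The WT mean of 2.16 ± 1.07 and the DKO mean of 2.11 ± 0.761 (SD, n = 3 each) differed by less than the spread (exact permutation test, two-sided p = 1.0, adjusted p = 1.0 over 6 tests). Over all tailed tags the mean was 2.91, 2.99 and 1.67 reads in WT and 3.11, 2.28 and 2.07 in DKO. Reads per tag of Pqbp1 were below those of the library in 5 of 6 libraries, WT replicate 2 being the exception, and all 7 tags of WT replicate 3 were single reads.

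The tails of Pqbp1 were of ordinary to long length and did not separate the genotypes. In WT replicates 1, 2 and 3 the mean tail was 81.7, 93.4 and 101.3 nt long, with standard errors over tags of 5.15, 7.79 and 17.6 nt. In DKO replicates 1, 2 and 3 it was 85.6, 94.5 and 78.3 nt long, with standard errors of 2.96, 5.48 and 40.3 nt. The means of number 3 are imprecise. The genotypes overlapped, with 92.1 nt ± 9.86 for WT and 86.1 nt ± 8.09 for DKO (SD, n = 3 each). The two-sided exact permutation test gave p = 0.5 (adjusted p = 0.6), where 3 against 3 libraries cannot go below 0.1. Within numbers 1 and 2 the DKO mean was 2.48 nt longer, and within number 3, with 7 against 3 tags, DKO minus WT was -23.0 nt.

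In WT, median tails of 77, 99 and 99 nt lay within ranges of 51 to 110, 30 to 165 and 49 to 191 nt. In DKO, median tails of 81, 86 and 54 nt lay within ranges of 15 to 177, 9 to 231 and 24 to 157 nt. The 3 Pqbp1 tags at 231 nt, the upper limit of the tail lengths in the files, were all of DKO replicate 2. Their tails may be longer than listed, and the mean of that library may then be too low. Both the shortest and the longest tails were found in DKO, which had more tags. In DKO replicate 3 the tails were 24, 54 and 157 nt long, so its mean rests on 1 long tail. In WT replicate 3 they were 49, 71, 72, 99, 103, 124 and 191 nt long.

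**Figure D3:**
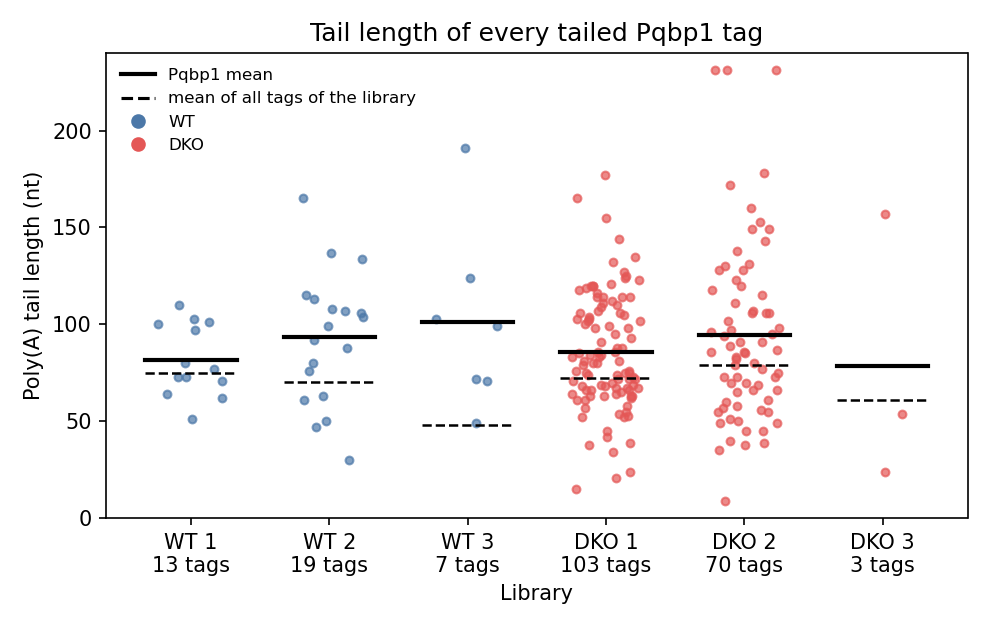
Tail length in nt of each of the 215 tailed Pqbp1 tags, by library, with the Pqbp1 mean as a solid line and the mean of all tailed, gene-linked tags of the library as a dashed line. The solid line lies above the dashed line in all 6 libraries, by 6.98 to 53.0 nt.

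The fit across gene IDs needs at least 10 tailed tags in every library, which Pqbp1 did not reach in either library numbered 3. Over all 6 libraries limma therefore tested 44 IDs without it, and 0 passed an adjusted p of 0.05 (0.0%), with 2 below 0.05 unadjusted. Of these 44 IDs, 41 had the longer tail in DKO, with a median log2 difference (DKO minus WT) of 0.097. In numbers 1 and 2 alone, a choice made after its counts were seen, limma tested 122 IDs, and 0 passed (0.0%), with 5 below 0.05 unadjusted. There 74 of the 122 IDs had the longer tail in DKO, with a median log2 difference of 0.033. The IDs share libraries, so these counts are a description. In the fit on numbers 1 and 2 Pqbp1 had a log2 difference in mean tail length (DKO minus WT) of 0.04, with a 95% interval of -0.26 to 0.34 (limma adjusted p = 0.94, n = 2 per genotype). In these 4 libraries the interval thus spans a tail from 0.836 to 1.27 times the WT length.

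Against its own library, Pqbp1 had the longer mean tail in 6 of 6 libraries. The excess over the mean of all tailed, gene-linked tags came to 6.98, 23.1 and 53.0 nt for the WT libraries and to 13.3, 15.6 and 17.4 nt for the DKO libraries, on average 21.6 nt ± 16.3 (SD, n = 6). The exact sign-flip permutation test, chosen after the values were seen, gave a two-sided p of 0.031, the smallest that 6 libraries allow, and 0.19 after adjustment over 6 tests, so the excess did not pass the correction. By medians Pqbp1 was longer in 5 of 6 libraries, by 13, 38 and 54 nt in WT and by 15 and 17 nt in DKO replicates 1 and 2. In DKO replicate 3 the difference was -2 nt (exact permutation p = 0.063, adjusted p = 0.19).

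Ranked among the IDs of its library that had 10 or more tailed tags, the mean tail of Pqbp1 ranked 86th from the longest of 197 in WT replicate 1 and 15th of 135 in WT replicate 2. It ranked 64th of 299 in DKO replicate 1 and 74th of 332 in DKO replicate 2. Pqbp1 was therefore above the middle of the IDs in all 4, without being among the extremes.

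By class of tail length, Pqbp1 had a smaller share of tails of 30 to 59 nt than its library in all 6 libraries. Tails of 30 to 59 nt made up 11.7% of its tags in DKO replicate 1 (95% exact interval 6.17 to 19.5) against 32.2% of all tags there, and 21.4% in DKO replicate 2 (12.5 to 32.9) against 30.8%. In WT replicates 1 and 2 they were 1 of 13 and 3 of 19 tags, against 35.4% and 37.4% of all tags. In WT replicate 3 they were 1 of 7 tags (0.361 to 57.9) against 46.1%. In DKO replicate 3 they were 1 of 3 tags (0.840 to 90.6) against 39.0%, so number 3 adds little. Tails from 90 to under 150 nt were more frequent than in the library in 5 of 6 libraries, at 36.9% (27.6 to 47.0) against 21.9% in DKO replicate 1 and 35.7% (24.6 to 48.1) against 26.0% in DKO replicate 2. They were 38.5% (13.9 to 68.4) against 21.6% in WT replicate 1 and 52.6% (28.9 to 75.6) against 20.4% in WT replicate 2. These intervals cover counting error only and are not adjusted for the number of classes and libraries compared. The shares of the classes within a library also depend on each other. Among the 4 libraries numbered 1 and 2, the Pqbp1 interval left out the value of all tags in the following classes. In DKO replicate 1 these were those under 30 nt (0.605 to 8.28 against 8.71%), of 30 to 59 nt, of 60 to 89 nt (35.8 to 55.7 against 33.4%) and from 90 to under 150 nt. In DKO replicate 2 it was the class under 30 nt (0.0362 to 7.70 against 7.80%), and in WT replicate 2 that from 90 to under 150 nt. Of the 3 tags of DKO replicate 3, none had a tail from 60 to under 150 nt.

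**Figure D4:**
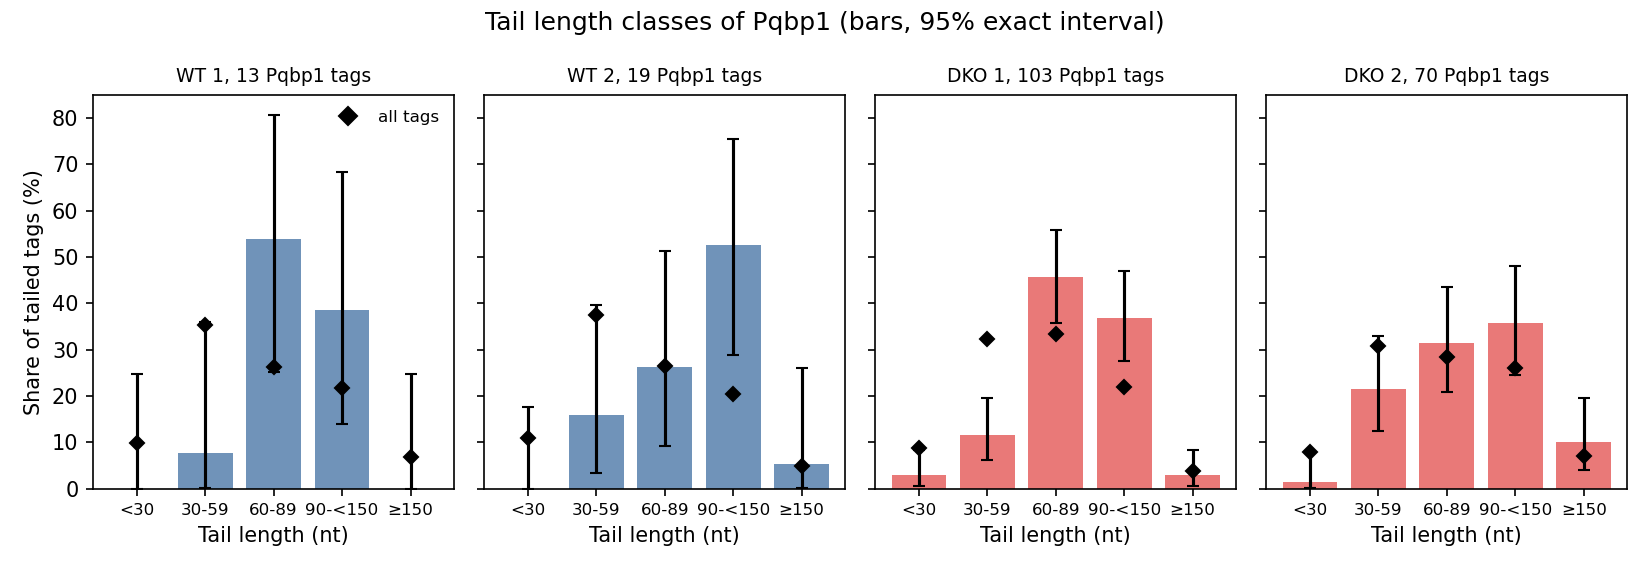
Share of tailed Pqbp1 tags in 5 classes of tail length (bars, with 95% exact intervals) and of all tailed, gene-linked tags (diamonds) in the 4 libraries numbered 1 and 2. In each, the class of 30 to 59 nt lies below and that from 90 to under 150 nt above the value of all tags.

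Short tails, under 30 nt, were found on 5 of the 215 tags. WT replicates had 0 of 13, 0 of 19 and 0 of 7, counts of 0 that allow shares of up to 23.1%, 15.8% and 42.9% (3 tags of the total, counting error only). DKO replicates had 3 of 103 (2.91%), 1 of 70 (1.43%) and 1 of 3 (33.3%). The genotypes did not overlap (two-sided exact permutation p = 0.1, which 3 against 3 libraries cannot go below, adjusted p = 0.2). The WT limits exceed the shares of DKO replicates 1 and 2, so a difference was not detectable at this depth. The difference of 12.6 percentage points (DKO minus WT) was 2.17 without DKO replicate 3, in which 1 of 3 tags was short. The short tails, other than that of 15 nt printed below with its added bases, are given as deposited, 5' to 3', with a letter other than A in capitals.
DKO replicate 1, tail of 21 nt: aaaaaaaaaaaaaaaaaaaaa
DKO replicate 1, tail of 24 nt: aTaaaaaaaaaaaaaaaaaaaaaaaa
DKO replicate 2, tail of 9 nt: aaaaaaaaa
DKO replicate 3, tail of 24 nt: aaaaaaaaaaaaaaaaaaaaaaaa
All 4 were read once or in 2 reads, and 1 of them holds a T near its 5' end. Over all tailed tags, tails under 30 nt made up 9.77%, 10.9% and 25.3% in WT and 8.71%, 7.80% and 15.4% in DKO.

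Few untailed tags were linked to Pqbp1. There were 0 in each WT library, 2 of 105 linked tags in DKO replicate 1 (1.90%), 1 of 71 in DKO replicate 2 (1.41%) and 0 of 3 in DKO replicate 3 (exact permutation p = 0.4, adjusted p = 0.6). Among all gene-linked tags the untailed share was 7.27%, 8.04% and 28.0% in WT and 7.01%, 5.99% and 24.2% in DKO. The counts of 0 in WT replicates 1, 2 and 3 allow shares of up to 23.1%, 15.8% and 42.9% (3 tags of the total). These limits exceed the library shares, and the 3 tags of DKO replicate 3 set no limit. The 95% exact interval of DKO replicate 1 (0.232 to 6.71) lay below its library share, and that of DKO replicate 2 (0.0357 to 7.60) included it.

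Bases added at the 3' end show what the tail reads look like, and all 7 such tags of Pqbp1 are printed for that reason. They came from DKO replicates 1 and 2, as 6 of 103 tags (5.83%, 95% exact interval 2.17 to 12.2) and 1 of 70 (1.43%, 0.0362 to 7.70). The WT libraries and DKO replicate 3 had 0, which at their depth allows shares of up to 15.8% or more. Over all tailed tags an added base was found on 2.87% in DKO replicate 1 and 2.75% in DKO replicate 2. The strings are as deposited, 5' to 3', with U written as T. Capitals mark the added bases, and the deposited string can differ in length from the tail called after mapping, most for the tail of 103 nt.
DKO replicate 1, tail of 15 nt: aaaaaaaaaaaaaaaTT
DKO replicate 1, tail of 63 nt: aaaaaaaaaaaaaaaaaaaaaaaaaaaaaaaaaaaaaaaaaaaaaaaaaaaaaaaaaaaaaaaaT
DKO replicate 1, tail of 67 nt: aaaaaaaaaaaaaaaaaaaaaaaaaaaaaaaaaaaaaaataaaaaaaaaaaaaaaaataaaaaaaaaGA
DKO replicate 1, tail of 69 nt: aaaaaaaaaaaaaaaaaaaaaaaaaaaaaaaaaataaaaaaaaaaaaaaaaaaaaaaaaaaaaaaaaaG
DKO replicate 1, tail of 72 nt: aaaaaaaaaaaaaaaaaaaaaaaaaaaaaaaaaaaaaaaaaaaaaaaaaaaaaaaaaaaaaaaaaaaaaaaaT
DKO replicate 1, tail of 103 nt: aaaaaaaaaaaaaaaC
DKO replicate 2, tail of 35 nt: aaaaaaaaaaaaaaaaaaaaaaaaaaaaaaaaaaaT
Uridine, the base added by terminal uridylyl transferases before decay of short-tailed mRNAs, was present on 4 of the 7, once as a pair on the shortest tailed tag of DKO replicate 1. The other 3 uridylated tails were 35, 63 and 72 nt long. The tails ending in G, GA and C were 69, 67 and 103 nt long. In 5 of the 7 strings the letters before the added bases were all A, and in the strings of the tails of 67 and 69 nt they held at least 1 T.

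The gene IDs whose tag share followed that of Pqbp1 most closely were sought over the 6 libraries, by Pearson r of log2 CPM across the 169 other IDs of the count model. This likeness rests on the pattern for which Pqbp1 was chosen and is a description. The closest was ENSMUSG00000023944.14 (r = 0.97), with 32, 26 and 15 tags in the WT libraries and 131, 108 and 6 in the DKO libraries. The next was ENSMUSG00000019505.7 (r = 0.93), with 18, 14 and 9 tags in the WT libraries and 59, 46 and 3 in the DKO libraries. Both were high in DKO replicates 1 and 2 and low in DKO replicate 3, as Pqbp1 was. These were the 2 IDs with an r above 0.9, and the median r over the 169 was 0.06. The points share libraries and their depth, and the files do not pair these IDs with names.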

How the data were processed

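Per library, the authors deposited tables of mapped tags, of links from tags to Ensembl gene IDs and of values per gene ID. The reads per tag and tags per gene ID are whole-number counts as deposited, and tail lengths are in nt. The submitters' processing notes name GSNAP, bedtools, mm10 and GRCm38. Sources used here do not give the tail caller or the annotation release. Tags and links were joined by tag. Tag counts and geometric mean tails of Pqbp1 recomputed this way equalled the deposited values in all 6 libraries. Pqbp1 and the lists were chosen with earlier results of these data known. The quasi-likelihood test of edgeR 4.0.16 was run on the counts of 170 IDs kept by filterByExpr, scaled by TMM. On log2 mean tails limma 3.58.1 was run, and both used Benjamini-Hochberg adjustment, in R 4.3.3. Both were also run on simulated data with known changes, which does not show how they perform on these libraries. DESeq2 1.42.0 was an alternative. Single values used exact permutation tests (SciPy 1.17.1), with 6 adjusted together. The reported fits and tests are unpaired, and the library number as a block was an alternative. Deviations from the genotype mean had r = 0.14, 0.21 and 0.38 over IDs between same-numbered WT and DKO libraries. The r was higher for WT replicate 1 with DKO replicate 2 (0.29) and for WT replicate 2 with DKO replicate 1 (0.38). Pairs of a number 3 with a number 1 or 2 had r from -0.37 to -0.26. Within a genotype such deviations offset each other by construction, and no pairing by number is shown for numbers 1 and 2. Named genes follow a fixed rule: Pqbp1, IDs sharing its tags, its neighbours, the 5 IDs most like it (2 printed) and pathway lists. The lists of spliceosome partners, DNA sensing and cell markers, and Btg1 and Btg2, are not analysed here, since the reference table holds an Ensembl ID for 0 of its 49997 genes.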

Additional observations from a re-analysis of the deposited data

Results flagged for a closer look

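The ratio of Pqbp1 tag shares, DKO over WT, was above 1 in numbers 1 and 2 (6.50 and 1.75) and below 1 in number 3 (0.780). The point values lie on opposite sides of 1, but no opposite direction is shown: number 3 has 1 library per genotype with 7 and 3 tags, and its interval of 0.130 to 3.42 includes 1 and the ratio of number 2. These are the tag shares by which Pqbp1 was chosen, and the difference between numbers was not tested.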

How the results depend on the processing

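The log2 difference in Pqbp1 tag count (DKO minus WT) stayed above 0 in all 14 alternatives, from 0.84 to 1.69. The log2 ratio of its share in number 3 over numbers 1 and 2, pooled over both genotypes, was -1.57. It stayed below 0 in all 12 alternatives, from -2.17 to -1.04. Both rest on the tag counts by which Pqbp1 was chosen, so a constant sign adds no evidence. The pooled ratio does not show a lower number 3 in WT. By genotype, numbers 1 and 2 over number 3 gave 5.09 in DKO and 1.16 in WT. The medians over the 170 IDs were 1.08 and 1.16. edgeR called 0 of 170 IDs for tag count as reported and 3 of 170 under the replicate block. It also called 3 of 170 when number 3 was set apart by a block. After dropping any 1 library it called 0 to 8, with 8 of 241 on dropping WT replicate 3. In numbers 1 and 2 alone it called 30 of 241, 7 higher and 23 lower in DKO. The number of IDs tested differs between these fits, so the counts are not directly comparable. The cause of the higher counts was not tested. limma called 0 IDs for tail length in all 10 alternatives. The difference in mean Pqbp1 tail (DKO minus WT, -6.00 nt) was 2.48 nt in numbers 1 and 2 alone and -11.2 to -1.42 nt when 1 library was left out. It was -18.0 nt with medians, -12.3 nt with geometric means, -14.9 nt for tags of at least 2 reads and -23.0 nt in number 3 alone. Leaving out each library in turn gave a short-tail difference of 2.17 to 18.1 percentage points and an untailed difference of 0.704 to 1.66. The short-tail difference was 0.490 for tags of at least 2 reads and 0.800 for tails under 20 nt, and the untailed difference was 0 for tags of at least 2 reads. The limma log2 difference in Pqbp1 tail in numbers 1 and 2 (0.04) was -0.065 with medians, -0.055 without WT replicate 1, -0.030 without DKO replicate 2, 0.11 without DKO replicate 1 and 0.14 without WT replicate 2, and limma called 1 of 129 IDs without WT replicate 1. The difference in reads per tag (-0.0579) was 0.333 with medians, 0.333 in number 3 alone and -0.640 to 0.413 when 1 library was left out. The excess over the library's mean tail was 15.3 to 24.5 nt when 1 library was left out and 14.7 nt in numbers 1 and 2 alone, where fewer libraries cannot give an exact permutation p below 0.063 and 0.13. The replicate block left the tail, short-tail, untailed and read differences at -6.00 nt, 12.6 and 1.10 percentage points and -0.0579, by construction. It gave the short-tail difference an exact sign-flip permutation p of 0.25, the smallest that 3 pairs allow. Among tags of at least 2 reads WT replicate 3 had none. Depth limits every Pqbp1 value of number 3, with 7 and 3 tags.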
